A study of Mus musculus with 6 samples.

Results

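The genes described here encode the nuclear-encoded machinery of oxidative phosphorylation, the 4 complexes of the mitochondrial electron transport chain and the ATP synthase, measured in epithelium of the mouse gonadal primordium with and without the homeobox gene Emx2. Members were every probe set whose platform annotation held a single gene symbol that begins with Nduf, with Sdh followed by a, b, c or d, with Uqcr, with Cox4 to Cox8 or with Atp5, or that is Cyc1. The rule used names only and took 186 probe sets of 95 genes out of the 45101 probe sets on the array, which name 18194 genes by a single symbol. It placed 34 genes in complex I, 4 in complex II, 9 in complex III, 19 in complex IV and 17 in complex V (the ATP synthase), plus 8 assembly factors of complex I and 4 of complex II. Ndufa4 and Ndufa4l2 were counted with complex IV, where the Ndufa4 protein is now placed. A further 10 probe sets with an Nduf symbol beside another symbol, among them those of Ndufa11 and Ndufs6, fell outside the rule.

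The 2 groups were 3 pools from Emx2 knockout (KO, -/-) fetuses and 3 pools from wild-type (+/+) fetuses, all at E10.5 of development. Each pool combined material of 3 fetuses, cut by laser from unfixed frozen sections of the urogenital ridge, and 15 ng of its total RNA was amplified over 2 rounds and biotin-labelled before hybridisation to 1 array. The comparison addressed how expression in this epithelium depends on Emx2. The targeted allele, the strain, the sex of the fetuses and any shared litters are not given in the sources used here, so p-values measure the spread between pools.

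In mitochondria, complex I (NADH dehydrogenase) and complex II (succinate dehydrogenase) pass electrons to ubiquinone, complex III passes them on to cytochrome c, and complex IV (cytochrome c oxidase) hands them to oxygen. Proton pumping by complexes I, III and IV drives the ATP synthase. Most subunits are encoded in the nucleus and are expressed in nearly every cell, while a few, such as Cox6a2, Cox7a1 and Cox8b, belong mainly to heart and skeletal muscle.

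Array-wide facts that touch these values were as follows. The only Emx2 probe set read 1678, 1480 and 1746 in the KO pools, against 1302, 2120 and 1727 in the wild-type pools, and did not pass the test (log2 fold change -0.05, adjusted p = 0.916). Whether it lies inside the deleted part is not known here, so it does not check the labels. Xist, transcribed from the inactive X of female cells, read between 7209 and 8363 in the KO pools and between 0.762 and 4.88 in the wild-type pools (1427262_at). Eif2s3y, on the Y chromosome, read between 99.8 and 226 in the KO pools and between 709 and 813 in the wild-type pools, so the groups differed in the sexes they held, and for every result below genotype and sex cannot be told apart. Arrays were brought to a common trimmed mean with factors between 0.869 and 1.07 for the KO arrays and between 0.829 and 1.22 for the wild-type arrays. All values below are scaled intensities, each log2 fold change is the KO level minus the wild-type level, given with its standard error (SE) over 3 pools in each group, and adjusted p-values come from limma over all 27023 probe sets tested.

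Of the 186 member probe sets, 174 were bright enough to be tested, covering 91 genes. The other 12 lay below the dim limit (a mean log2 value of 4.72, an intensity of 26.4), and among them were the only member probe sets of Ndufb4, Cox7b2, Cox8b and Ndufa4l2. No member was called higher in KO at an adjusted p under 0.05, where 2.75% of all tested probe sets were called higher, and 1 was higher at an unadjusted p under 0.05, where 9.86% of all tested probe sets were. Called lower in KO were 4 member probe sets, of the genes Cox6c, Cox5a and Uqcrh, and 170 were not called. Over the whole array 1.93% of probe sets were called lower, so the share of members called was close to that background.

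The sign of the fold changes leaned further. The log2 fold change was below 0 for 142 of the 174 tested members (81.6%), against 49.1% of all tested probe sets. Its median was -0.12 over the members and 0.01 over all tested probe sets. At an unadjusted p under 0.05, 39 members were lower in KO, where the array-wide share was 7.45%. In 40 members every KO value lay below every wild-type value, against 10% of all tested probe sets, and in 4 members every KO value lay above, against 12%. Most single differences were small: with 1 probe set standing for each gene, 78 of 91 genes were below 0 and the fold changes ran from -0.45 to 0.26. In bulk epithelium, fewer cells rich in mitochondria and less of each RNA per cell cannot be told apart.

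**Figure D1:**
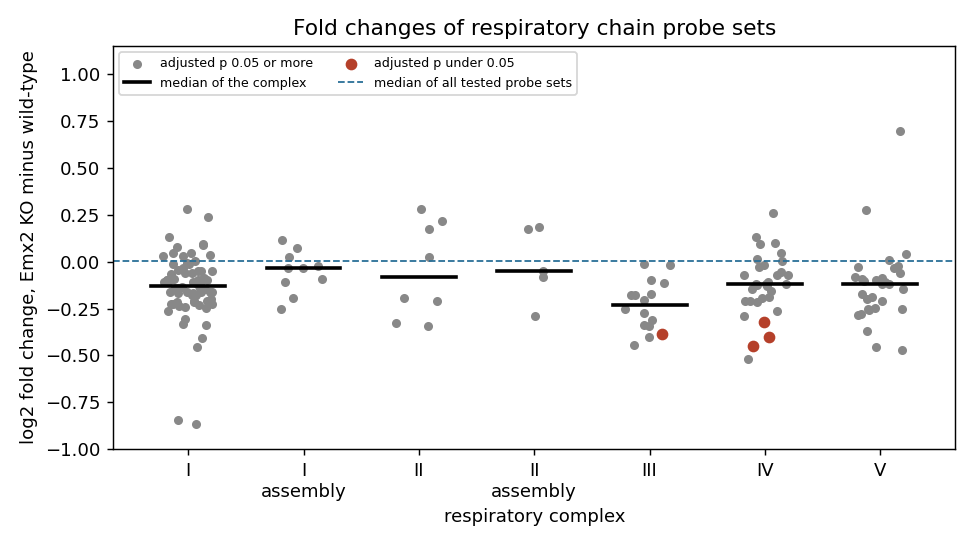
Log2 fold change (Emx2 KO minus wild-type) of each of the 174 tested member probe sets, by respiratory complex, with the median of each complex as a bar and the median of all tested probe sets (0.01) as a dashed line. Red points are the 4 probe sets with an adjusted p under 0.05, of Cox6c, Cox5a and Uqcrh, and all 16 points of complex III lie below 0.

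Complex IV held 3 of the 4 calls, and both Cox6c probe sets were among them. Cox6c encodes a small subunit of cytochrome c oxidase. Its probe set 1434491_a_at read 6600, 5661 and 6476 in the KO pools and 8695, 7856 and 8988 in the wild-type pools. All 3 KO values lay below all 3 wild-type values, and the fold change was -0.45 ± 0.08 (SE, n = 3 pools each, adjusted p = 0.0071), or 26.7% lower. The other, 1415970_at, read 5133, 5482 and 5352 in the KO pools and 7909, 6996 and 6253 in the wild-type pools, a fold change of -0.40 ± 0.09 (adjusted p = 0.0202). Here too the groups did not overlap. Of all member probe sets, only 1434491_a_at was called in each of the 6 fits that left out 1 pool, whereas 1415970_at was called in 1 of them, that without wild-type replicate 3.

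Cox5a encodes a nuclear-encoded subunit that sits on the matrix side of the enzyme. It was called by 1 of its 3 probe sets, 1439267_x_at, which read 5230, 5097 and 5474 in the KO pools and 7206, 6123 and 6460 in the wild-type pools (-0.32 ± 0.08, adjusted p = 0.0379). The suffix of that probe set marks it as open to cross-hybridisation. The others had fold changes of -0.29 (1415933_a_at, adjusted p = 0.0557, groups not overlapping) and -0.13 (1448153_at, adjusted p = 0.463, groups overlapping). The Cox5a call was kept without wild-type replicate 2 or 3 and lost without any of the other 4 pools. It was also lost with quantile normalization, a common median, cyclic loess, values as deposited, no filter, no intensity trend and the replicate number as a block.

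As the 2 called genes with a RefSeq window here, Cox5a and Uqcrh are shown by the 250 bases before their annotated starts in GRCm38.p6, each 5′ to 3′ on the strand of its gene, chr9:57520982-57521231 on the plus strand for Cox5a and chr4:116075071-116075320 on the minus strand for Uqcrh. Capitals mark the ETS motif CCGGAAG, which in Uqcrh stands on the opposite strand, 10 to 4 bases before the start, and which the Cox5a stretch does not hold.
Cox5a: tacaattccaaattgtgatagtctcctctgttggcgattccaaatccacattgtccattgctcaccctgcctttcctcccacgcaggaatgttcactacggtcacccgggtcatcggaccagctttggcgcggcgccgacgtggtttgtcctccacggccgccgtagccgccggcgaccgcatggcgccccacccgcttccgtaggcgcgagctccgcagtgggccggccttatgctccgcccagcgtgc
Uqcrh: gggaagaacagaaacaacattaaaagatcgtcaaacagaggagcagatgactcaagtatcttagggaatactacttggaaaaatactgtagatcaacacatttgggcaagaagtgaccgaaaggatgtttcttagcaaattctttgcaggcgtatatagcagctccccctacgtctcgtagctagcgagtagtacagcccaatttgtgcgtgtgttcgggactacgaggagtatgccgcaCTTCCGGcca

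The rest of complex IV was not called. Of the 32 tested probe sets of the complex, those called included, 25 were below 0, and the median was -0.12. The widest fold change of the complex, -0.52 (adjusted p = 0.498), came from a Cox8a probe set close to the dim limit, 1436409_at, which was picked out after its values were seen. It read 42.8, 32.6 and 22.3 in the KO pools and 65.5, 33.0 and 42.5 in the wild-type pools, with overlap. Cox4i1, the ubiquitous form of the largest nuclear-encoded subunit, read 5916, 6168 and 5953 in the KO pools and 6895, 7072 and 5743 in the wild-type pools (-0.12, adjusted p = 0.529), the groups overlapping through the third wild-type pool. Cox7a2l, a factor in joining complexes III and IV, read 5645, 5298 and 5020 in the KO pools and 6136, 6317 and 5783 in the wild-type pools (-0.19, adjusted p = 0.21). Its groups did not overlap, and neither did those of 1432263_a_at (-0.21, adjusted p = 0.197), while those of 1432264_x_at did (-0.03, adjusted p = 0.931). Cox6b1 (-0.14), Cox7a2 (-0.16), Cox8a (1448222_x_at, -0.12), Cox6a1 (-0.07) and Ndufa4 (-0.21), the widely expressed forms of their subunits, did not pass the test, and in all 5 the groups overlapped. A further Cox8a probe set, 1416112_at, lay above 0 (0.10, adjusted p = 0.792), also with overlapping groups.

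Forms of complex IV subunits used mainly in other settings were not called. Cox6a2 and Cox7a1, of heart and skeletal muscle, read between 25.1 and 38.4 in the KO pools and between 22.6 and 38.1 in the wild-type pools (Cox6a2), and between 46.9 and 55.0 in the KO pools and between 40.5 and 66.8 in the wild-type pools (Cox7a1). Cox4i2, a form tied to low oxygen, read between 26.3 and 33.0 in the KO pools and between 31.7 and 40.6 in the wild-type pools. Groups overlapped in each, and fold changes of 0.04, -0.12 and -0.22 did not pass the test. Cox6b2, known from testis, read between 177.6 and 216.6 in the KO pools and between 176.4 and 207.6 in the wild-type pools (0.02). Cox8c, also known from testis, read between 96.4 and 129.6 in the KO pools and between 68.9 and 132.1 in the wild-type pools (0.26), and in both the groups overlapped. Cox8b, a muscle form, read between 0.695 and 2.54 in the KO pools and between 1.42 and 2.93 in the wild-type pools, under the dim limit in every pool.

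Complex III had the median farthest below 0 of the 5 complexes, at -0.23, though differences between complexes were not tested. All of its 16 tested probe sets, covering 9 genes, were below 0. Among them, 6 had KO values all below the wild-type values, against 10% of all tested probe sets, and 1 was called lower, against 1.93%. That one belonged to Uqcrh, the hinge protein next to cytochrome c1. It read 2791, 3012 and 3036 in the KO pools and 4367, 3821 and 3427 in the wild-type pools (1453229_s_at, -0.39 ± 0.10, adjusted p = 0.0401). The groups did not overlap, and the third wild-type pool lay nearest to the KO pools. Its other probe set, 1452133_at, had a fold change of -0.34 (adjusted p = 0.19) and overlapped through that pool. The Uqcrh call was kept in 1 of the 6 fits that left out a pool, that without wild-type replicate 3. It was lost with a common median, values as deposited, no filter, no intensity trend and the replicate number as a block.

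The redox-active and core subunits of complex III were not called. Cyc1, cytochrome c1 itself, read 3610, 3697 and 3738 in the KO pools and 5166, 4569 and 4029 in the wild-type pools (-0.31 ± 0.09, adjusted p = 0.0884). Uqcrc2, a core protein, read 4051, 4226 and 3931 in the KO pools and 4946, 4620 and 4989 in the wild-type pools (-0.25 ± 0.08, adjusted p = 0.0891). In these probe sets every KO value lay below every wild-type value, while the groups overlapped in the other Uqcrc2 probe set (1428631_a_at, -0.17, adjusted p = 0.358). No overlap was seen either for Uqcrc1, the other core protein (-0.21, adjusted p = 0.28), or for Uqcrfs1, the Rieske iron-sulfur protein (-0.18, adjusted p = 0.34).

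**Figure D2:**
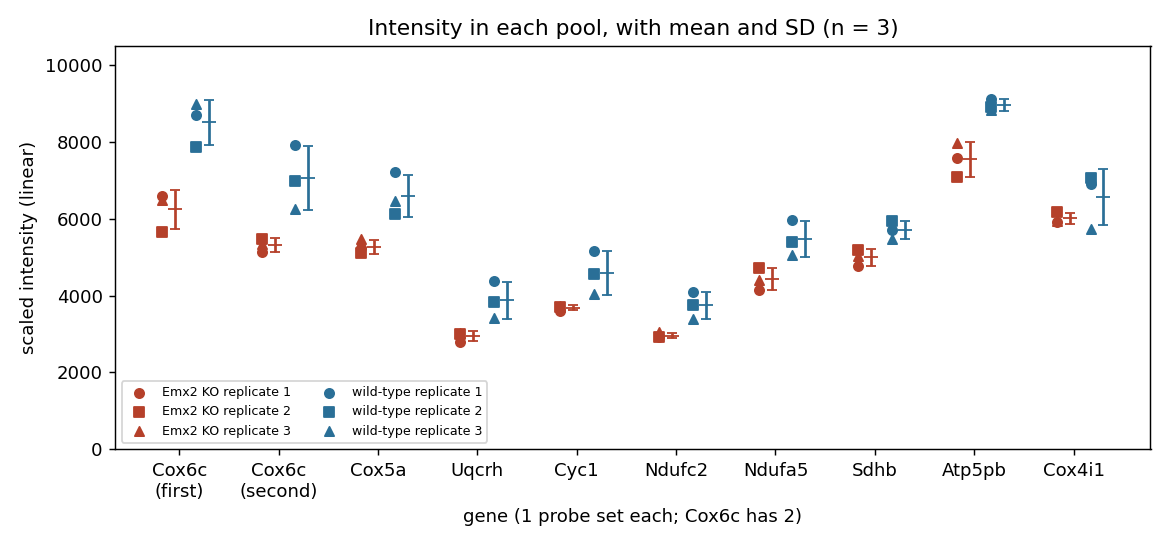
Scaled intensity (linear axis from 0) of 10 member probe sets in each pool, Emx2 KO in red left of wild-type in blue, with the mean and SD of 3 pools beside the points. The first Cox6c probe set is 1434491_a_at; in Cox6c, Cox5a, Uqcrh, Cyc1, Ndufc2, Ndufa5, Sdhb and Atp5pb the groups do not overlap, and in Cox4i1 the third wild-type pool lies below the KO pools.

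In complex I, 61 of 73 tested probe sets were below 0, the median was -0.13 and none was called by limma. At an unadjusted p under 0.05, 11 were lower and 0 higher, where the array-wide shares were 7.45% and 9.86%. Ndufc2, a subunit of the membrane arm, came nearest to the threshold. It read 2921, 2909 and 3042 in the KO pools and 4084, 3754 and 3387 in the wild-type pools (1460506_s_at, -0.34 ± 0.09, adjusted p = 0.0517). Its groups did not overlap, nor did those of 1416366_at (-0.33, adjusted p = 0.139), while those of 1455036_s_at did (-0.16). Ndufa5, an accessory subunit of the peripheral arm, read 4143, 4713 and 4404 in the KO pools and 5975, 5394 and 5058 in the wild-type pools (1417285_a_at, -0.31 ± 0.09, adjusted p = 0.0653). There the groups did not overlap, but they did in the other Ndufa5 probe set (1417286_at, -0.17, adjusted p = 0.666).

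The catalytic core of complex I, which carries the flavin and the iron-sulfur clusters, gave small fold changes. Ndufv2 read 5824, 6070 and 6158 in the KO pools and 7303, 6808 and 6830 in the wild-type pools (-0.21 ± 0.07, adjusted p = 0.122). Ndufv1, which binds NADH and the flavin, read 3679, 3532 and 3461 in the KO pools and 4348, 4412 and 3770 in the wild-type pools (-0.23 ± 0.09, adjusted p = 0.18), and all 3 of its probe sets were below 0 with groups that did not overlap. Groups overlapped in the probe sets that stand for Ndufs1 (-0.16), Ndufs3 (-0.10), Ndufs7 (-0.01) and Ndufs8 (-0.05), and the 6 probe sets of Ndufs8 had both signs, from -0.10 to 0.04. Under quantile normalization the probe sets that stand for Ndufs7 and Ndufs8 turned to 0.02 and 0.01. The other Ndufs7 probe set, 1451312_at, had a fold change of -0.21 (adjusted p = 0.501), also with overlapping groups.

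The widest fold changes in complex I came from dim probe sets, picked out here after their values were seen. Probe set 1442658_at of Ndufb2 (-0.87) read 21.3, 137.3 and 120.1 in the KO pools and 142.5, 132.5 and 112.3 in the wild-type pools, so that its difference came from 1 KO pool. The fold change of Ndufb2 in 1448483_a_at was -0.16. Probe set 1458678_at of Ndufab1 (-0.85, adjusted p = 0.204) likewise contrasted with -0.01 in 1428159_s_at. Members on the X chromosome were Ndufa1 (-0.10, adjusted p = 0.608) and Ndufb11 (-0.14, adjusted p = 0.445), both with overlapping groups. Xist was high in KO pools alone, and the part of sex in these values was not tested.

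Complex II, the only one of the chain that is also an enzyme of the citrate cycle, had no common sign. Of 8 tested probe sets, 4 were below 0 and 4 above, and none was called. Lower at an unadjusted p under 0.05 were 2 and higher 0, against 7.45% and 9.86% over the array. Sdhb, the iron-sulfur subunit, read 4761, 5197 and 5030 in the KO pools and 5709, 5944 and 5471 in the wild-type pools (-0.19 ± 0.08, adjusted p = 0.199), with no overlap. Sdhd, a membrane anchor, read 714.6, 553.5 and 594.0 in the KO pools and 767.1, 713.6 and 843.6 in the wild-type pools (-0.32 ± 0.13, adjusted p = 0.217), overlapping by 1 KO pool.

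Sdhc, the other anchor, ran the other way: 1448630_a_at read 1131, 1234 and 1126 in the KO pools and 988, 1182 and 942 in the wild-type pools (0.17 ± 0.12, adjusted p = 0.499). In 1435986_x_at (0.28, adjusted p = 0.346) every KO value lay above every wild-type value, which was not so in the first. The probe sets of Sdha, the flavoprotein subunit, differed among themselves. They had fold changes of -0.21 (1426688_at, KO below wild-type in all pools), 0.03 (1426689_s_at, overlapping) and 0.21 (1433293_at, KO above wild-type in all pools). None passed the test. The difference between subunits was not tested.

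Assembly factors, which build complexes I and II without staying in them, gave 0 calls by limma. Of the complex I factors, 7 of 10 tested probe sets were below 0 (median -0.04), and of the complex II factors 3 of 5 (median -0.05). The fold changes of Ndufaf2 (-0.25), Ndufaf8 (-0.20) and Ndufaf4 (0.12) had adjusted p-values of 0.282, 0.333 and 0.788, and the other Ndufaf4 probe set stood at -0.03. Sdhaf4 (-0.29), which acts on the flavinated Sdha subunit, had an adjusted p of 0.27, and Sdhaf2 (0.18, with -0.05 in its other probe set) and Sdhaf1 (0.17) had 0.647 and 0.677. At an unadjusted p under 0.05 each of the 2 sets held 1 lower and 0 higher probe sets, where the array-wide shares were 7.45% and 9.86%.

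In the ATP synthase, 26 of 30 tested probe sets were below 0, the median was -0.12 and none was called by limma. There, 10 were lower and 1 was higher at an unadjusted p under 0.05, against 7.45% and 9.86% of all tested probe sets. Atp5pb, subunit b of the peripheral stalk, read 7585, 7082 and 7976 in the KO pools and 9130, 8918 and 8834 in the wild-type pools (-0.25 ± 0.07, adjusted p = 0.0656). Atp5o, which ties that stalk to the catalytic head, read 1014, 1010 and 963 in the KO pools and 1373, 1128 and 1379 in the wild-type pools (1437164_x_at, -0.37 ± 0.11, adjusted p = 0.0868). In both the groups did not overlap, though those of the other Atp5o probe set did (1416278_a_at, -0.12). Atp5md, a small membrane subunit known for its part in enzyme dimers, read 2087, 1837 and 1625 in the KO pools and 2953, 2090 and 2593 in the wild-type pools (-0.45 ± 0.13, adjusted p = 0.0733), with 1 KO value close to the lowest wild-type value. It was called with the replicate number as a block and without wild-type replicate 2.

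The alpha and beta subunits, which form the ring of the catalytic head and were chosen for mention after their values were seen, had groups that did not overlap. Atp5b, the catalytic beta subunit, read 4268, 3787 and 4406 in the KO pools and 4907, 5215 and 4758 in the wild-type pools (-0.26 ± 0.08, adjusted p = 0.116). Atp5a1, the alpha subunit, was below 0 in each of its 3 probe sets, between -0.47 and -0.17, none of them called. The c-ring of the membrane rotor is encoded by 3 genes whose mature proteins are the same. Of these, Atp5g1 (0.01), Atp5g2 (0.04) and Atp5g3 (-0.09) had overlapping groups and adjusted p-values between 0.604 and 0.972. A dim Atp5g2 probe set, 1456128_at, was the 1 member higher at an unadjusted p under 0.05 (0.69, adjusted p = 0.202), with 60.5, 74.5 and 56.7 in the KO pools and 32.9, 35.6 and 51.5 in the wild-type pools.

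Probe sets of 1 gene did not always run the same way. Of 51 genes with several tested probe sets, 34 had all of them below 0, 3 had all above 0 and 14 had both signs. The other 40 tested genes had 1 tested probe set.

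The pools did not divide cleanly by genotype. The median deviation of the 174 tested members from the mean of the 6 arrays was -0.10, -0.02 and -0.07 in the KO pools and 0.13, 0.12 and -0.06 in the wild-type pools (log2). Wild-type replicate 3 thus lay within the range of the KO pools, while the other wild-type pools lay above it. The same placing was seen in complex I (-0.07 in wild-type replicate 3), complex IV (-0.07) and complex V (-0.10), where the last was lower than all 3 KO pools. In complex III wild-type replicate 3, at -0.02, lay above all KO pools, which were at -0.16, -0.08 and -0.16.

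**Figure D3:**
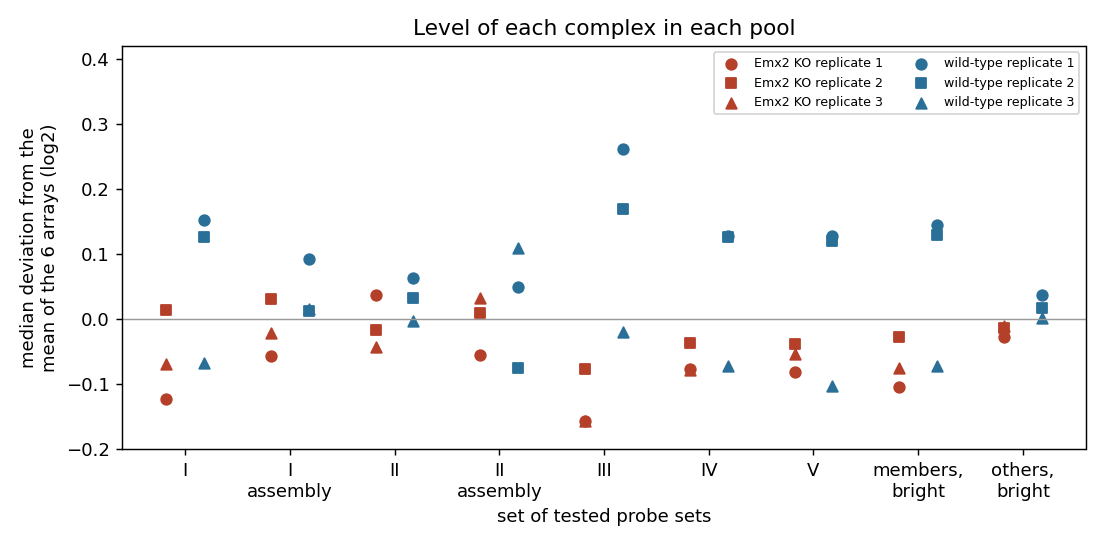
Median deviation of tested probe sets from the mean of the 6 arrays (log2) in each pool, for each complex and for bright members and other bright probe sets, Emx2 KO in red left of wild-type in blue. Wild-type replicates 1 and 2 lie above the KO pools in complexes I, III, IV and V, and wild-type replicate 3 (blue triangle) lies among or near the KO pools there.

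Gene by gene, among the 115 members with a mean log2 value of 10 or more (an intensity of 1024), values above the mean of the 6 arrays were found in 10, 44 and 8 members in the KO pools and in 106, 109 and 34 members in the wild-type pools. Wild-type replicate 3 had the lowest wild-type value in 97 of the 115. Wild-type replicates 1 and 2 exceeded all KO pools in 96 and 102 members, and wild-type replicate 3 in 39. Without that pool 28 member probe sets were called lower in KO and the median of the members was -0.18, against 4 and -0.12 with all 6 pools. Calls over the whole array were also more numerous without it, with 795 of 27023 probe sets (2.94%) lower, against 522 with all 6 pools, and 892 higher, against 742. Without any 1 of the KO pools, or without wild-type replicate 1, 1 member was called, and without wild-type replicate 2, 4.

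**Figure D4:**
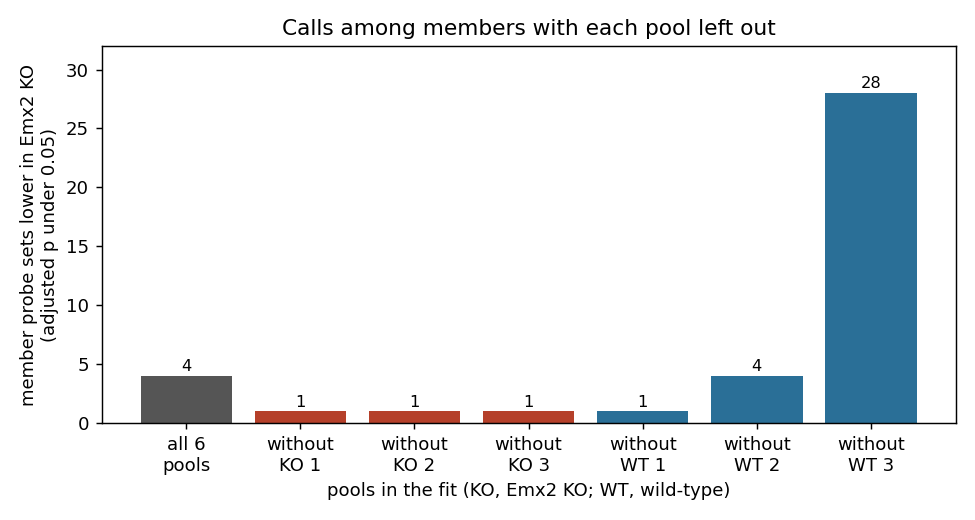
Number of member probe sets called lower in Emx2 KO (adjusted p under 0.05) with all 6 pools and with each pool left out in turn. The count was 4 with all pools, between 1 and 4 without any of 5 pools, and 28 without wild-type replicate 3.

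Several measurements moved with the arrays. Wild-type replicate 3 had the highest deposited median (63.6) and wild-type replicate 1 the lowest (40.6), with 59.8, 54.2 and 48.2 in the KO arrays and 47.0 in wild-type replicate 2. The ratio of 3′ to 5′ control probe sets of Gapdh, a sign of RNA length after amplification, was 3.68, 4.16 and 3.64 in the KO arrays and 4.25, 3.80 and 3.48 in the wild-type arrays. That of Actb was 19.3, 20.2 and 14.6 in the KO arrays and 19.4, 16.6 and 14.9 in the wild-type arrays. Groups overlapped in all 3 measures, and wild-type replicate 3 had the lowest wild-type ratio in both. The part of these measures in the result was not tested.

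Brightness also moved with the fold changes. The split at a mean log2 value of 10 was chosen after seeing the data. Of the 115 bright members 105 were below 0, with a median of -0.14, and of the 4453 other bright probe sets 60.6% were below 0, with a median of -0.04. All 4 calls were bright members, and 117 of the 4453 others were called lower. At an unadjusted p under 0.05, 35 of the 115 and 470 of the 4453 were lower in KO. Every KO value lay below every wild-type value in 36 of the 115 and in 648 of the 4453. Among the 59 dimmer members 37 were below 0, with a median of -0.04. In the brightest class, at 12 and over, the medians were -0.13 for 55 members and -0.08 for 1028 other probe sets, of which 80.4% were below 0. Between 10 and 12 they were -0.17 for 60 members and -0.02 for 3425 others. Brightness was not set apart from membership by any test.

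**Figure D5:**
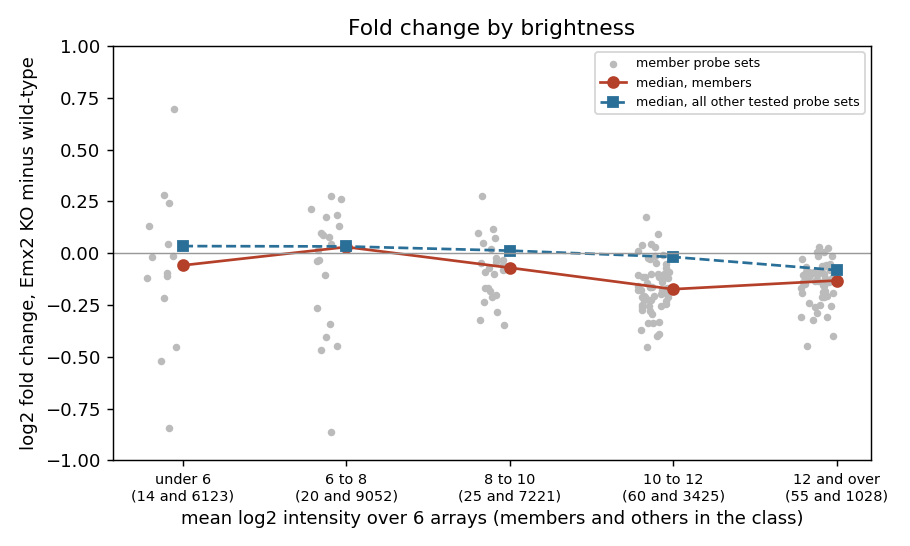
Log2 fold change (Emx2 KO minus wild-type) of the tested members by class of mean log2 intensity over the 6 arrays, with the median of the members in red and of all other tested probe sets in blue. Both medians lie lower in the bright classes, at -0.17 and -0.02 between 10 and 12 and at -0.13 and -0.08 at 12 and over.

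The scaling set how far the members lay from 0. Quantile normalization gave a median of -0.09 with 132 of 174 members below 0 and 3 calls, and cyclic loess, chosen after seeing the data, gave -0.09 with 135 below 0 and 3 calls. Scaling to a common median gave -0.15 with 150 below 0 and 2 calls. With the values as deposited, where the median of all tested probe sets was 0.10, the members stood at -0.03, 107 were below 0 and none was called. Relative to the median of all tested probe sets the members lay at -0.12 as reported, with a common median and as deposited. Those settings differ only by a factor for each array, which moves members and all probe sets alike, so their shared value was fixed in advance. With quantile normalization and with cyclic loess, which can change that distance, it was -0.08.

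Genes that serve the chain from outside it were read from 6 lists, chosen with earlier results of these data known. Over all tested probe sets, 2.75% were called higher and 1.93% lower, and 49.1% were below 0. The calls of these lists come from the main fit alone and were not followed through other settings or with a pool left out. Of 23 tested assembly factors of complexes III and IV, 0 were called lower and 1 higher, Cox19, a factor in copper delivery to complex IV. It read 2318, 2598 and 2661 in the KO pools and 1654, 2007 and 1822 in the wild-type pools (0.47 ± 0.10, adjusted p = 0.0182), with no overlap. The median of that list was -0.09. Of 4 genes for assembly and inhibition of the ATP synthase, 1 was called, Atpif1, which inhibits the enzyme when it runs in reverse. Its values were 4336, 4247 and 4643 in the KO pools and 5928, 5273 and 5691 in the wild-type pools (-0.35 ± 0.08, adjusted p = 0.0216), again with no overlap.

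Of 16 genes of electron carriers and coenzyme Q synthesis limma called none (12 below 0, median -0.06). The array-wide shares for this and the next lists were 49.1% below 0, 2.75% called higher and 1.93% called lower. Of 16 genes of pyruvate dehydrogenase and the citrate cycle, 14 were below 0 (median -0.15). Fh1, fumarate hydratase, was called lower (-0.34 ± 0.08, adjusted p = 0.0328). It read 3242, 3368 and 2988 in the KO pools and 4126, 4001 and 3970 in the wild-type pools. Mdh2, malate dehydrogenase, was lower in 1 of its 2 probe sets (1416478_a_at, -0.40 ± 0.09, adjusted p = 0.0228), with 2597, 2905 and 2598 in the KO pools and 3317, 3532 and 3829 in the wild-type pools. The probe set that stands for Mdh2 in the counts was not called (1433984_a_at, -0.13, adjusted p = 0.391). All 6 tested genes for transport of ATP, phosphate and metabolites were below 0 (median -0.12). Vdac3, an outer membrane channel, was called lower (-0.31 ± 0.07, adjusted p = 0.0255). It read 7755, 7775 and 7851 in the KO pools and 9249, 10468 and 9281 in the wild-type pools. In Fh1, Vdac3 and the called Mdh2 probe set the groups did not overlap.

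Of 17 tested genes of mitochondrial biogenesis and mitochondrial DNA expression, 0 were called higher and 2 lower, against 2.75% and 1.93% over the array. Those 2 were the coactivators Ppargc1a and Ppargc1b, which raise transcription of respiratory genes in tissues of high energy use. Ppargc1a read 66.4, 55.2 and 51.4 in the KO pools and 95.8, 125.6 and 139.4 in the wild-type pools (1460336_at, -1.05 ± 0.23, adjusted p = 0.0181). Ppargc1b read 90.9, 93.7 and 86.3 in the KO pools and 206.8, 242.7 and 143.0 in the wild-type pools (-1.10 ± 0.21, adjusted p = 0.0099). In both genes the groups did not overlap. Both fold changes were larger than that of any called respiratory chain member, but both genes were dimmer and had wider SEs than those members. Dim members that were not called reached -0.87 (1442658_at of Ndufb2) and -0.85 (1458678_at of Ndufab1). The part of these coactivators in the respiratory chain result was not tested. The median of that list was -0.06. Its members Nrf1 (0.27, adjusted p = 0.223), Gabpa (-0.01) and Yy1 (-0.10), singled out after their values were seen, encode DNA-binding proteins known to act on respiratory genes and were not called.

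Marker lists of cell types that the cut tissue could hold also differed between the groups. Beside the counts below, 2.75% of all tested probe sets were called higher and 1.93% lower. Each sum took every marker of the list on the array, by 1 probe set for each gene, those under the dim limit included. Of 10 tested mesenchyme markers, 7 were called higher and 0 lower, with a summed intensity of 16916 to 17945 in the KO pools and 11613 to 12520 in the wild-type pools. Of 8 endothelial markers 6 were tested and 4 called higher, with sums of 1310 to 1577 in the KO pools and 771 to 1018 in the wild-type pools, while Pecam1 and Tie1 lay under the dim limit. Markers of the gonadal epithelium, all 10 of them above the dim limit, gave 1 higher and 2 lower, with sums of 24139 to 26443 in the KO pools and 26089 to 28742 in the wild-type pools. Markers of striated and heart muscle, a tissue rich in these complexes, gave 2 higher and 3 lower of 10, with sums of 4422 to 4888 in the KO pools and 3742 to 4659 in the wild-type pools. Of the 4 tested erythroid markers none was called by limma, and the sums of that list were 35393 to 36798 in the KO pools and 35263 to 36989 in the wild-type pools. Germ cell markers gave 2 lower of 4, with sums of 247 to 340 in the KO pools and 412 to 512 in the wild-type pools. Nephric markers gave 1 lower of 2, with sums of 74.4 to 150.4 in the KO pools and 219 to 276 in the wild-type pools, and the other 3 on the array lay under the dim limit. The part of these cell types in the respiratory chain result was not tested.

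The stretches around the annotated starts of the member genes were searched for 3 short sequences known as binding motifs of factors that act on respiratory genes, on both strands: the NRF1 consensus with 1 base free, which the capitals further on show, CCGGAAG for the ETS family and AAGATGGC for YY1. RefSeq windows of GRCm38.p6, from 250 bases before to 50 after a start, were at hand for 78 of the 95 genes, in 83 windows. The NRF1 motif stood in 20 of them (24.1%), against 9.59% of 12667 windows of other genes with a tested probe set and 4.60% of all 32851 windows. The ETS motif stood in 22 (26.5%), against 16.7% and 8.86% in the same sets, and the YY1 motif in 10 (12%), against 4.26% and 2.75%. The median share of G and C bases was 59.0% in the member windows, 60.7% in those of the other tested genes and 52.7% in all windows. The part of base content in these shares was not tested. At least 1 of the motifs was found in 54.2% of the member windows, and matches of different motifs did not overlap there. A match describes letters and not a bound site.

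To show how the NRF1 motif sits in each complex, 30 bases around it are given for 1 gene of each, 5′ to 3′ on the strand of the gene, with the motif or its reverse complement in capitals. The stretches lie at chr6:24527697-24527726 (minus strand) for Ndufa5, chr9:50603909-50603938 (minus) for Sdhd, chr9:108936643-108936672 (plus) for Uqcrc1, chr5:115349101-115349130 (minus) for Cox6a1 and chr16:91931602-91931631 (minus) for Atp5o.
Ndufa5: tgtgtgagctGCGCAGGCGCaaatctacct
Sdhd: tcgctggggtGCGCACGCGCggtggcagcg
Uqcrc1: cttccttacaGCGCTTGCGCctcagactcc
Cox6a1: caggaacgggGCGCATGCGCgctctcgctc
Atp5o: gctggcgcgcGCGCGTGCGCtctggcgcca

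In Ndufa5, Sdhd and Cox6a1 the motif ended 181, 70 and 153 bases before the start, and in Uqcrc1 and Atp5o it lay on the opposite strand, 6 to 15 and 10 to 19 bases after it. The Cox6a1 letters match the motif on both strands. The windows of Uqcrc1 and Cox6a1 each held 3 NRF1 matches, counted by strand, and the first is shown. Among genes with a window and a tested probe set, the median was -0.10 for the 18 with the NRF1 motif and -0.14 for the 57 without it. For the ETS motif it was -0.14 in 22 genes with it and -0.11 in 53 without, and for the YY1 motif -0.09 in 10 with and -0.14 in 65 without. These medians were not tested against each other.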

How the data were processed

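The deposited values were intensities on a linear scale, 1 for each probe set of each array, from 3 Emx2 KO and 3 wild-type pools. The submitters' processing notes name GCOS 1.2. The way it turned scans into the intensities the authors deposited, and any scaling in it, are not given in the sources used here. Detection calls were not used. The number of arrays limits the precision: the median SE of a log2 fold change was 0.188.

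Arrays were scaled to a common 2% trimmed mean (309.2) and floored at the 20th percentile (7.99) before log2. Leaving out 64 control probe sets and the 40% of lowest mean left 27023. The test was limma (version 3.58.1, R 4.3.3; lmFit, then eBayes with a trend; prior degrees of freedom 8.73), two-sided, with p-values adjusted over all of these by Benjamini-Hochberg and a threshold of 0.05. The procedure was tested on simulated data. Two-round amplification shortens RNA and can lower probe sets that lie towards the 5′ end. Levels of different probe sets were not compared.

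Symbols came from the platform annotation, in which 34958 probe sets had 1 symbol, 932 several and 9211 none. All 95 member genes matched the RefSeq table. The members and lists were chosen with earlier results of these data known. Genes were named by rule: those with a call, the 3 of smallest p in each complex, core subunits, tissue isoforms, X-linked members and called genes of the related lists. For the last 4 kinds and for gene counts the probe set with the highest mean stood for a gene.

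Alternatives were other scalings, floors and filters, a pseudocount of 16, a replicate block, array weights, a fit with no trend, a threshold of 0.1, leaving out probe sets that end in _x_at or _s_at, and leaving out each pool. Calls of genes in the related lists and marker lists were not followed through these alternatives. Cyclic loess and the brightness split were chosen after seeing the data. Deviations of KO and wild-type pools with the same number correlated at -0.07, 0.04 and -0.05, so the numbers were not taken to pair pools.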

Additional observations from a re-analysis of the deposited data

How the results depend on the processing

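The number of member probe sets called lower in Emx2 KO, 4 as reported, was 0 with the values as deposited, with no filter and with no intensity trend, 2 with a common median and without _x_at and _s_at probe sets, 7 with array weights, 12 at an adjusted p threshold of 0.1, and from 1 to 28 with 1 pool left out. With the replicate number as a block it was 3, with Cox5a and Uqcrh lost and Atp5md gained. No setting called a member higher. Apart from the pools left out, both Cox6c probe sets were called under every setting but the values as deposited, no filter and no trend. Over the whole array, the calls higher, 742 as reported, were 107 with no filter, 317 with no trend and from 441 to 892 with a pool left out, and the calls lower, 522 as reported, were 267 as deposited, 44 with no filter, 224 with no trend and from 271 to 795 with a pool left out. As deposited, the medians moved to -0.027 for all members and for complex IV, 0.057 for complex I assembly, 0.0096 for complex II and 0.043 for complex II assembly. The complex II median was -0.024 with quantile normalization, -0.033 with cyclic loess, and -0.19 with no filter and without _x_at and _s_at probe sets. With a pool left out, complex I assembly lay between -0.083 and -0.0057 and complex V between -0.23 and -0.077. The other 142 medians moved by less than 1 SD of the pool medians.

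Of the named genes, 10 changed sign under some setting, all reported between -0.12 and 0.04 and called by no setting. With quantile normalization Cox6a1 stood at 0.021, Ndufs8 at 0.011, Ndufs7 at 0.020 and Cox6b2 at -0.023. As deposited Atp5g3 stood at 0.00056, Cox6a1 at 0.020, Ndufs8 at 0.042 and Ndufs7 at 0.080. Cyclic loess put Cox6a1 at 0.0011, Ndufs8 at 0.0015, Ndufs7 at 0.023 and Cox6b2 at -0.019. A common median put Sdha at -0.0025, Atp5g1 at -0.017 and Cox6b2 at -0.013, array weights put Atp5g1 at -0.0011 and Cox6b2 at -0.0060, and a floor at the 40th percentile put Cox6a2 at -0.0077. With a pool left out the fold changes ran from -0.12 to 0.0058 for Ndufs8, -0.011 to 0.048 for Sdha, -0.12 to 0.067 for Ndufs7, -0.0083 to 0.11 for Atp5g2, -0.054 to 0.077 for Atp5g1, -0.062 to 0.097 for Cox6b2, -0.33 to 0.029 for Cox7a1 and -0.15 to 0.22 for Cox6a2. The causes of these moves were not tested.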
